A study of Mus musculus with 12 samples.

Results

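JSH-23 was given to resting bone marrow-derived dendritic cells (BMDCs) without lipopolysaccharide (LPS), and the transcriptomes of these cells, called WT + JSH23, were compared with those of untreated cells, called WT. Each group held 3 samples, so that 6 of the 12 samples of the series entered the comparison, and each value below rests on 3 samples per group. The remaining 6 samples, WT + LPS and WT + LPS + JSH23, served to estimate the spread of each gene and to set the change with JSH-23 under LPS beside the change without it. BMDCs are dendritic cells grown from mouse bone marrow with the cytokine GM-CSF. Per the labels and the study's methods, the marrow came from C57BL/6 mice of 8 to 12 weeks of age that carry CreER, a Cre recombinase expressed from the Rosa26 locus in all cell types and switched on by tamoxifen. The culture lasted 6 days with a change of medium every 2 days, and floating cells with surface CD11c were selected with beads. Ctcf, the gene that the study deletes in other cultures, is intact in all 4 groups, and the sources used here leave unclear whether the active form of tamoxifen was also added to these WT cultures. JSH-23 was applied at 100 µM for 3 h, and LPS, where used, at 100 ng/ml for 3 h. The sources used here do not say whether WT cells received the solvent of JSH-23, nor at which time after JSH-23 the cells without LPS were collected. WT samples are numbered 4 to 6 and WT + JSH23 samples 1 to 3. No label ties a sample to an animal, a culture or a day, so JSH-23, its solvent and any difference between culture sets cannot be told apart, and p-values measure the spread between these samples, which may be technical.

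JSH-23 is a small molecule known for keeping RelA, a subunit of NF-κB, out of the nucleus. In unstimulated cells NF-κB dimers are mostly held in the cytoplasm by IκB proteins, and signals from Toll-like receptors or cytokine receptors free them to switch on cytokine, chemokine and survival genes. Cells also respond to small reactive molecules through other circuits. Nrf2 turns on glutathione, thioredoxin and haem-degrading enzymes, the integrated stress response raises ATF4 and its targets in amino acid supply, and heat shock factors raise chaperones. The genes of these circuits, of dendritic cell identity and of the cell cycle are therefore described in turn.

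Total expected counts ran from 26497569 to 32559096 in WT and from 24664724 to 29088621 in WT + JSH23. Mitochondrially encoded genes took 3.38% to 3.57% of the counts in WT and 3.50% to 3.64% in WT + JSH23, and small non-coding RNA took 0.402% to 0.407% and 0.519% to 0.598%. In a principal component analysis of these 6 samples the first component, with 60.3% of the variance, separated WT from WT + JSH23. The defining dendritic cell markers were present in every sample. Itgax, which encodes CD11c, was measured at 634, 673 and 638 CPM in the WT samples and 607, 609.8 and 578 CPM in the WT + JSH23 samples, and the class II gene H2-Ab1 at 2043, 2051 and 2086 CPM in the WT samples and 1898, 1859 and 1943 CPM in the WT + JSH23 samples. Summed abundance of 25 dendritic cell markers was 28097 to 28902 TPM (transcript abundance, reads per transcript length scaled to a common total) in WT and 26392 to 26909 TPM in WT + JSH23. The cultures also held monocyte and macrophage transcripts. The 19 such markers summed to 18862 to 19770 TPM in WT and 14778 to 15060 TPM in WT + JSH23. Most of each sum was Lyz2, at a mean of 14941 TPM in WT and 11989 TPM in WT + JSH23. Neutrophil markers (15 genes) summed to 389 to 401 TPM and 337 to 361 TPM. B cell markers reached at most 0.52 TPM, erythroid markers 0.33 TPM and stromal markers 0.67 TPM in any of the 6 samples. Markers of T or NK cells summed to 5.05 to 6.06 TPM in WT and 2.99 to 5.74 TPM in WT + JSH23. Those of mast cells or basophils (4.56 to 5.62 TPM and 2.61 to 3.26 TPM) and of plasmacytoid cells (29.3 to 31.9 TPM and 21.3 to 22.0 TPM) were lower in every treated sample, and their part in the results was not tested. In bulk samples, fewer cells of a type and less RNA per cell cannot be told apart.

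The first question was how many genes JSH-23 alone moved. Of 14357 genes tested, 5881 (41%) passed an adjusted p of 0.05, with 2701 (18.8%) higher and 3180 (22.1%) lower in WT + JSH23. Over all genes tested, passing or not, changes were mostly small. The interquartile range of the log2 fold change ran from -0.21 to 0.18 and its median was -0.0078. With a change of more than 2-fold required as well, 771 genes (5.37%) were called, 349 (2.43%) higher and 422 (2.94%) lower. Samples of the groups did not overlap for 7397 genes (51.5%). Called genes were more frequent among genes of low abundance, with 10.7% of 2414 genes under a mean of 1 CPM (counts relative to the scaled library size) and 2.88% of 1979 genes at 100 CPM or more. Protein-coding genes accounted for 286 of the calls in the higher direction and 325 in the lower. Of the 101 genes named by rule and reported, 30 had fractional counts in at least 1 sample and 20 overlap another protein-coding gene, so their reads may be shared. Fractional counts in all 12 samples were found for 15, among them Ifit3, Ly6c2, Irak2 and Csf1r. Below, "passed" refers to an adjusted p under 0.05 with edgeR's quasi-likelihood test, and "rose" or "fell" is written only of genes that passed. Each list count below is to be read beside the shares of all genes tested, 18.8% higher and 22.1% lower. The lists were chosen with earlier results of these data known, so counts above these shares could in part be foreseen. The shares also cover genes of low abundance, and the lists were not matched to all genes by abundance.

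**Figure D1:**
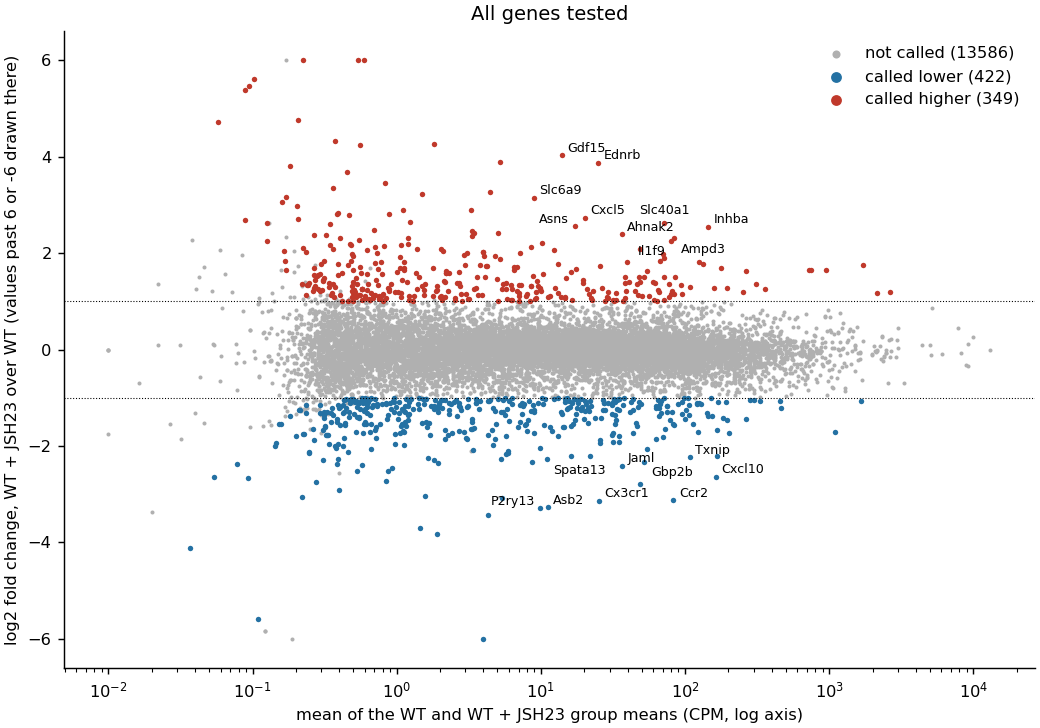
Change with JSH-23 against abundance for the 14357 genes tested. The x axis is the mean of both group means in CPM on a log axis, the y axis the log2 fold change of WT + JSH23 over WT, the dotted lines mark 2-fold, and colours mark the 349 genes called higher and 422 called lower. The labelled genes are the 10 largest rises and 9 of the 10 largest falls by the naming rule, of which Gdf15 rose most and P2ry13 fell most.

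The largest rises included secreted factors, a receptor, a chemokine, transporters, enzymes and a scaffold protein. The naming rule required that the groups not overlap for these genes and for the largest falls, so their separation is no further evidence. It also required over 3 counts in every sample and 10 CPM or more as the larger group mean. Larger changes at lower levels, such as that of Chac1 below, are therefore not among them. Gdf15, a stress-induced secreted factor (ENSMUSG00000038508.7, chromosome 8, 70629393 to 70632456), was measured at 1.22, 1.45 and 2.24 CPM in the WT samples and 23.6, 22.8 and 32.9 CPM in the WT + JSH23 samples. Gdf15 rose 16.3-fold (log2 fold change 4.03, SE 0.278, adjusted p = 1.2e-10). Ednrb, an endothelin receptor (ENSMUSG00000022122.15, chromosome 14, 103814625 to 103844402), stood at 3.00, 3.73 and 2.76 CPM in the WT samples and 50.6, 40.5 and 48.6 CPM in the WT + JSH23 samples. Its rise was 14.6-fold (log2 fold change 3.87, SE 0.133, adjusted p = 2.53e-15). Inhba, which encodes a subunit of activin A (ENSMUSG00000041324.14, chromosome 13, 16011851 to 16031621), was found at 44.2, 42.5 and 40.5 CPM in the WT samples and 196, 223 and 324 CPM in the WT + JSH23 samples. The treated samples differed more among themselves than the untreated ones, and all exceeded them (log2 fold change 2.55, SE 0.128, adjusted p = 9.66e-13). Il1f9, an epithelial and myeloid cytokine of the IL-1 family, rose from 27.8 ± 1.43 to 133 ± 9.02 CPM (log2 fold change 2.26, SE 0.0558, adjusted p = 2.47e-17). Ampd3, an enzyme that deaminates AMP, went from 28.2 ± 0.994 to 139.6 ± 8.30 CPM (log2 fold change 2.31, SE 0.0735, adjusted p = 8.6e-16), and Ahnak2, a large scaffold protein gene, from 11.7 ± 0.391 to 61.3 ± 5.21 CPM (log2 fold change 2.39, SE 0.0908, adjusted p = 1.19e-14). The glycine transporter gene Slc6a9, Cxcl5, the iron exporter gene Slc40a1 and Asns complete the 10 and are described with their groups. Slc6a9 and Ampd3 had fractional counts and lie over further protein-coding genes, so their reads may be shared with a neighbour.

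The largest falls included receptors, a chemokine and intracellular proteins. Ccr2, the receptor by which monocytes leave the marrow toward CCL2 (ENSMUSG00000049103.14, chromosome 9, 124101950 to 124113557), was at 143, 159 and 145 CPM in the WT samples and 18.9, 18.7 and 13.5 CPM in the WT + JSH23 samples. It fell 8.75-fold (log2 fold change -3.13, SE 0.0942, adjusted p = 3.67e-16). Cx3cr1, the fractalkine receptor of resident myeloid cells (ENSMUSG00000052336.7, chromosome 9, 119901616 to 120069879), was at 45.4, 47.5 and 42.8 CPM in the WT samples and 5.38, 5.53 and 4.53 CPM in the WT + JSH23 samples, an 8.79-fold fall (log2 fold change -3.14, SE 0.0887, adjusted p = 1.47e-16). P2ry13, a receptor for ADP (ENSMUSG00000036362.2, chromosome 3, 59207892 to 59210882), showed 17.8, 18.3 and 17.9 CPM in the WT samples and 1.69, 1.70 and 2.11 CPM in the WT + JSH23 samples. P2ry13 fell 9.82-fold (log2 fold change -3.29, SE 0.113, adjusted p = 2.53e-15). Asb2, a component of ubiquitin ligases, fell from 20.2 ± 0.572 to 2.10 ± 0.172 CPM (log2 fold change -3.27, SE 0.109, adjusted p = 1.75e-15). Cxcl10, an interferon-induced chemokine that attracts T cells (ENSMUSG00000034855.13, chromosome 5, 92346638 to 92348889), was found at 264, 301 and 283 CPM in the WT samples and 43.4, 44.0 and 48.8 CPM in the WT + JSH23 samples and fell 6.23-fold (log2 fold change -2.64, SE 0.0671, adjusted p = 3.47e-17). Other large falls were those of the adhesion gene Jaml (-2.41 log2), the interferon-induced GTPase gene Gbp2b (-2.33), Spata13 (-2.27), an exchange factor for small GTPases, and Txnip (-2.24), an inhibitor of thioredoxin. P2ry13, Cx3cr1 and Cxcl10 overlap other protein-coding genes.

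**Figure D2:**
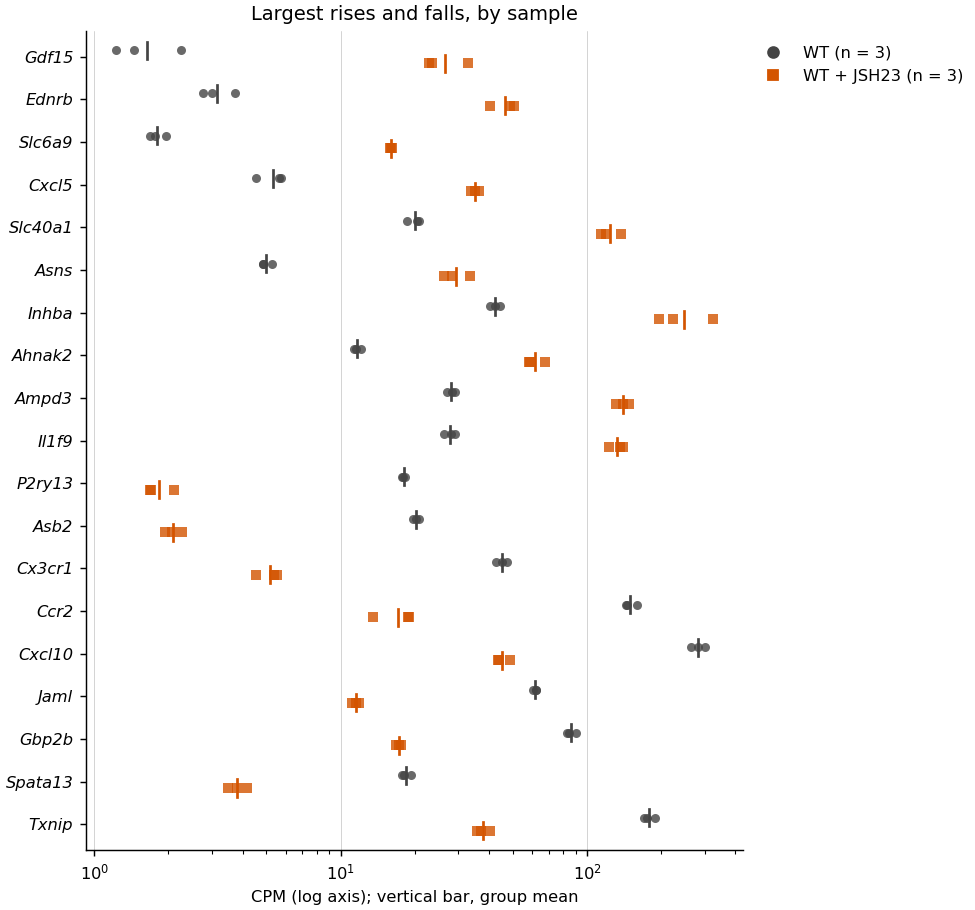
The 10 largest rises (top) and 9 of the 10 largest falls (bottom) by sample. The x axis is CPM on a log axis, circles are the 3 WT samples, squares the 3 WT + JSH23 samples and vertical bars the group means, and the groups do not overlap for any of these genes, as the naming rule required.

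The target pathway itself was examined next. Among 47 NF-κB subunits and targets, 6 rose, 26 fell and 15 did not pass, and the median log2 fold change was -0.15 against -0.0078 over all genes. Of the 5 subunit genes, Relb and Nfkb1 fell slightly (-0.19 and -0.16). Rela, the subunit that JSH-23 keeps out of the nucleus, was at 145, 142 and 149 CPM in the WT samples and 133, 140.1 and 146 CPM in the WT + JSH23 samples. The samples overlapped and the difference did not pass (log2 fold change -0.053, SE 0.0449, adjusted p = 0.375). Inhibitors of the pathway, most of them also its targets, were lower, with 9 of 11 past the test. Nfkbia, which encodes the inhibitor IκBα, was at 267, 266 and 266 CPM in the WT samples and 207, 212 and 219.9 CPM in the WT + JSH23 samples and fell by a modest but separated amount (log2 fold change -0.32, SE 0.0414, adjusted p = 1.62e-06). Nfkbiz, a nuclear IκB protein that helps induce secondary cytokine genes, fell more, from 26.0 ± 1.40 to 13.8 ± 0.349 CPM (log2 fold change -0.91, SE 0.0581, adjusted p = 3.4e-11). Tnfaip3, a ubiquitin-editing brake on the pathway, fell (log2 fold change -0.33), and Nfkbib rose (0.26).

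Cytokine genes did not move together. Of 14 on the list, 3 rose, 5 fell and 6 did not pass. Tnf, a main inflammatory cytokine, was at 102, 116 and 110.3 CPM in the WT samples and 28.7, 31.8 and 33.3 CPM in the WT + JSH23 samples and fell 3.50-fold (log2 fold change -1.81, SE 0.0573, adjusted p = 8.17e-16). Il12b, the subunit shared by IL-12 and IL-23, was at 119.6, 109 and 112 CPM in the WT samples and 246, 273 and 306 CPM in the WT + JSH23 samples. It rose 2.42-fold with no overlap (log2 fold change 1.28, SE 0.0770, adjusted p = 1.5e-11), whereas Il12a, the subunit particular to IL-12, was at 2.45, 2.96 and 2.73 CPM in the WT samples and 0.615, 0.579 and 0.510 CPM in the WT + JSH23 samples and fell (log2 fold change -2.24, SE 0.180, adjusted p = 1.32e-09). Il6 was at 32.9, 28.7 and 29.0 CPM in the WT samples and 42.7, 42.8 and 54.6 CPM in the WT + JSH23 samples and rose (log2 fold change 0.63, SE 0.0822, adjusted p = 2.02e-06). Low-abundance falls included Il27 (-1.85) and the lymphotoxin gene Lta (-1.71). Il1b, with a log2 fold change of -0.16, did not pass (adjusted p = 0.0664), while the receptor antagonist gene Il1rn rose (0.35). Among the adhesion and survival genes, Icam1 (-0.65) and Ier3 (-0.78) fell and Nos2, the inducible nitric oxide synthase gene, rose (0.37).

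Chemokine ligands split by family. None of the 11 CC ligands rose and 9 fell, whereas 6 of 9 CXC ligands rose and the other 3 fell. The medians were -0.61 and 0.23. The CXC ligands that rose included the neutrophil attractants Cxcl1 (1.32), Cxcl2 (0.91) and Cxcl3 (1.65, from 362 ± 14 to 1139.5 ± 93.1 CPM). Cxcl5, of the same kind, was at 4.53, 5.75 and 5.62 CPM in the WT samples and 35.1, 33.7 and 36.3 CPM in the WT + JSH23 samples and rose 6.61-fold (log2 fold change 2.73, SE 0.0899, adjusted p = 1.49e-15). The 3 that fell were the interferon-induced ligands of CXCR3, namely Cxcl9 (-0.94), Cxcl10 and Cxcl11 (-3.71). Ccl2, the ligand of CCR2, was at 12.4, 13 and 11.2 CPM in the WT samples and 3.26, 3.73 and 4.36 CPM in the WT + JSH23 samples and fell (log2 fold change -1.70, SE 0.106, adjusted p = 2.55e-11). Its neighbours in function Ccl7 (-2.06) and Ccl12 (-1.95), both of low abundance, fell too, as did Ccl3 (-0.71) and Ccl4 (-1.57). Ccl5 and Ccl6, both abundant, did not pass, with log2 fold changes of -0.01 and 0.027.

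Receptors for chemokines, nucleotides and other attractants had one of the lowest list medians, -0.76, with 23 of 32 tested lower and 6 higher. More than 2-fold falls numbered 12, and no receptor rose more than 2-fold. Besides Ccr2 and Cx3cr1, receptors for complement fragments fell, C3ar1 from 122 ± 6.70 to 42.3 ± 4.59 CPM (-1.54 log2) and C5ar1 from 39.3 ± 2.06 to 16.5 ± 1.38 CPM (-1.26). Cysltr1, a leukotriene receptor (-2.20), and Gpr84, a receptor for medium-chain fatty acids (-2.20), fell. Among nucleotide receptors P2ry12 (-2.36), P2rx7 (-1.24) and P2ry6 (-1.09) fell. The 6 that rose were the nucleotide receptor genes P2ry2 (0.99), P2ry1 (0.44) and P2ry10 (0.28), the leukotriene receptor gene Ltb4r1 (0.44, at a low level), Cxcr4 (0.59) and Ccr7 (0.26), the receptor that leads mature dendritic cells to lymph nodes. Several of these receptors are also known from monocytes. The monocyte and macrophage markers moved with them, with 13 of 18 lower and 2 higher. The summed level of these markers, most of it Lyz2, did not overlap between the groups. Their part in the receptor falls was not tested.

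The receptor of LPS was examined as well, with other receptors such as Tlr3 and with adaptors and kinases. Of these 27 genes, 9 of them receptors, 16 fell and 5 rose (median -0.17). Myd88, the adaptor of most Toll-like receptors, was at 151, 158 and 154 CPM in the WT samples and 84.7, 89.1 and 86.2 CPM in the WT + JSH23 samples, lower in every treated sample (log2 fold change -0.83, SE 0.0435, adjusted p = 1.78e-12). Ikbke, a kinase of the interferon branch, fell from 405 ± 7.73 to 195 ± 7.70 CPM (log2 fold change -1.05, SE 0.0437, adjusted p = 4.75e-14), and Tlr3, the receptor for double-stranded RNA, from 34.7 ± 4.50 to 13 ± 0.795 CPM (log2 fold change -1.42, SE 0.0964, adjusted p = 9.35e-11). Tlr4 itself fell slightly (-0.17), while its coreceptor gene Cd14 rose (0.64). Irak2 fell (-0.39). Trim25, a ubiquitin ligase of RNA sensing, did not pass, with a log2 fold change of -0.026.

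Interferon-stimulated genes fell almost as a block, by amounts mostly under 2-fold. Of 41 tested, 37 fell, none rose and 4 did not pass, and the median was -0.56. Ifit3, an antiviral effector, was at 640.1, 695 and 659.7 CPM in the WT samples and 342, 332 and 342 CPM in the WT + JSH23 samples, and Oas2, an RNA-sensing enzyme, at 127, 133 and 129.7 CPM in the WT samples and 65.1, 69.7 and 66.7 CPM in the WT + JSH23 samples. Neither gene had overlapping groups, and both fell (log2 fold change -0.97, SE 0.0387, adjusted p = 2.45e-14 for Ifit3, and log2 fold change -0.95, SE 0.0475, adjusted p = 8.64e-13 for Oas2). Ch25h, which makes an antiviral oxysterol, fell from 21.3 ± 1.05 to 10.2 ± 0.541 CPM (log2 fold change -1.06, SE 0.0895, adjusted p = 2.83e-09). The factors behind these genes fell in part, with Irf1 (-0.64), Stat2 (-0.41) and Irf7 (-0.39) lower and Irf3 (0.0097) and Irf5 (-0.067) not past the test. Ifnb1, the interferon beta gene, had 12, 17 and 10 counts in WT and 1, 0 and 3 counts in WT + JSH23. It was lower in all 3 treated samples (adjusted p = 0.000307), and no fold is given at these counts. Acod1, the itaconate-producing enzyme gene that this list also holds, did not pass (-0.066, adjusted p = 0.177).

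**Figure D3:**
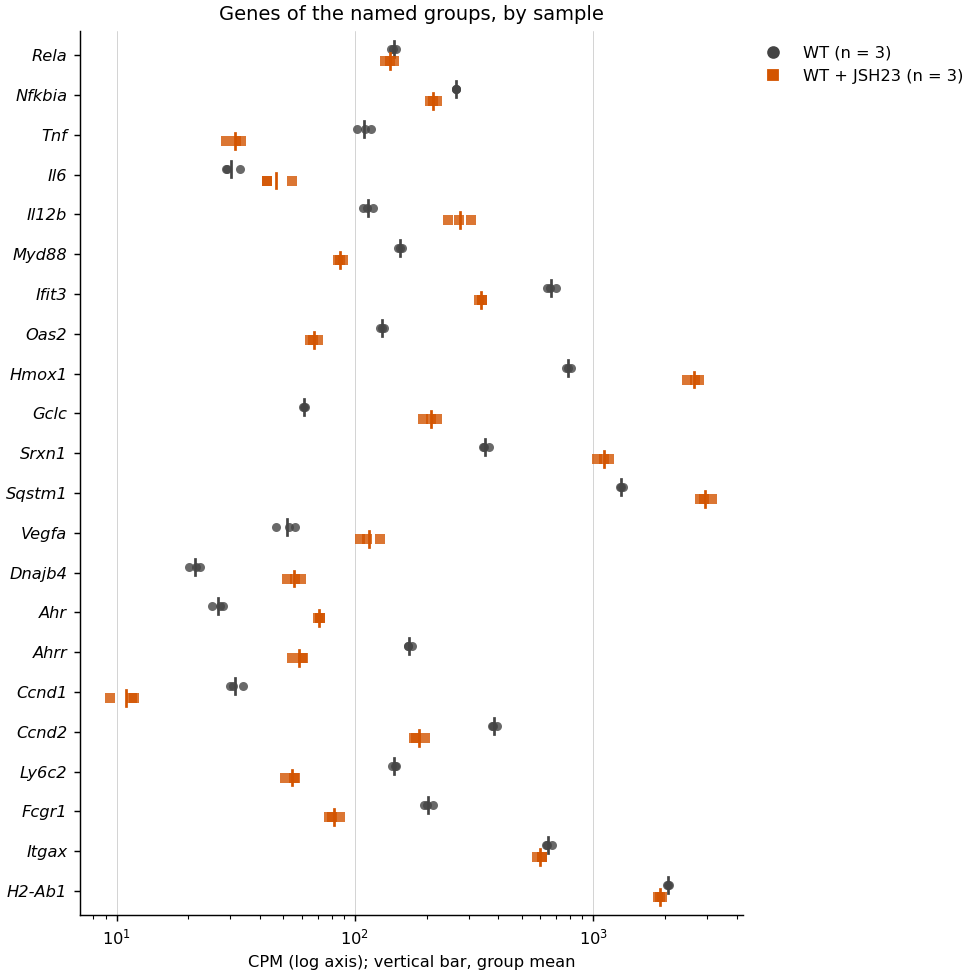
Selected genes of the NF-κB, LPS receptor, interferon, Nrf2, stress, heat shock, aryl hydrocarbon receptor, cell cycle and cell marker groups by sample. The x axis is CPM on a log axis, circles are the 3 WT samples, squares the 3 WT + JSH23 samples and vertical bars the group means, and the samples overlap for Rela but not for the other genes drawn.

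Nrf2 targets had the highest list median, 0.62. Of 35 genes, 28 rose and 6 fell, and 8 of the rises were more than 2-fold. Hmox1, haem oxygenase, was at 780.1, 802 and 766 CPM in the WT samples and 2664, 2469 and 2780.1 CPM in the WT + JSH23 samples, a 3.37-fold rise (log2 fold change 1.75, SE 0.0689, adjusted p = 2.07e-14). Glutathione genes showed the same direction for 11 of 12. Gclc, the catalytic subunit of the enzyme that limits glutathione synthesis, was at 60.9, 60.3 and 61.8 CPM in the WT samples and 208, 193 and 222 CPM in the WT + JSH23 samples (log2 fold change 1.77, SE 0.0854, adjusted p = 5.35e-13), and its modifier subunit gene Gclm rose from 213 ± 10.5 to 506 ± 20.5 CPM (1.25 log2). Slc7a11, the cystine importer, rose from 881 ± 33.1 to 1479.7 ± 18.0 CPM (0.75). All 5 thioredoxin system genes rose. Srxn1, sulfiredoxin, was at 343, 365 and 349 CPM in the WT samples and 1109.5, 1039.7 and 1164 CPM in the WT + JSH23 samples (log2 fold change 1.65, SE 0.0570, adjusted p = 2.64e-15), Prdx1 had a log2 fold change of 0.87 and Txnrd1 of 0.70. The thioredoxin inhibitor gene Txnip, among the largest falls above, was at 169.9, 189 and 176 CPM in the WT samples and 40.4, 35.9 and 37.0 CPM in the WT + JSH23 samples. The gene of the factor itself, Nfe2l2, fell (-0.49), and Gpx1 (-0.34) and Idh1 (-0.24) also fell.

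Iron handling genes included both a large rise and a large fall. Slc40a1, ferroportin, the exporter of iron, was at 20.4, 20.8 and 18.7 CPM in the WT samples and 137, 119 and 114 CPM in the WT + JSH23 samples and rose 6.18-fold (log2 fold change 2.63, SE 0.0677, adjusted p = 3.81e-17). Tfrc, the transferrin receptor that brings iron in, was at 28.9, 30.5 and 25.7 CPM in the WT samples and 13.4, 14.2 and 11.4 CPM in the WT + JSH23 samples and fell (log2 fold change -1.13, SE 0.0900, adjusted p = 1.17e-09). The ferritin genes Fth1 (0.26) and Ftl1 (0.44) rose, and the metal importer gene Slc39a14 rose from 25.5 ± 0.733 to 43.5 ± 2.00 CPM (log2 fold change 0.77, SE 0.0556, adjusted p = 2.59e-10). In all, 6 of 13 rose and 6 fell.

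The integrated stress response list had 15 of 22 tested genes higher and 1 lower (median 0.41), and amino acid synthesis and transport had 15 of 21 higher and none lower (median 0.57). ATF4 with its partners of the C/EBP family binds a composite DNA element, searched here as TGATGNAA on either strand. RefSeq promoters (250 bases before to 50 after each start, build GRCm38.p6) numbered 26 for 20 integrated stress response genes, of which 5 held it, and 21 for 17 amino acid genes, of which 5 held it, against 2.37% of 12991 promoters of all genes tested. Both lists were built around ATF4 and its known targets, with earlier results of these data known. A higher share in them could be foreseen and does not bear on JSH-23. Promoters were found for 65.9% of the genes called higher, 63.5% of those called lower and 71.2% of all genes tested. These are too few for a check of the sets. The element was in 3.90% of the promoters of genes called higher and 4.12% of those called lower. The 4 promoters below, of Chac1, Trib3, Asns and the cystine importer gene Slc7a11, are examples of genes that rose and hold the element, shown so that its sequence can be read beside the values, with matches on either strand in capitals.
Chac1 (chr2:119350992-119351291, plus strand): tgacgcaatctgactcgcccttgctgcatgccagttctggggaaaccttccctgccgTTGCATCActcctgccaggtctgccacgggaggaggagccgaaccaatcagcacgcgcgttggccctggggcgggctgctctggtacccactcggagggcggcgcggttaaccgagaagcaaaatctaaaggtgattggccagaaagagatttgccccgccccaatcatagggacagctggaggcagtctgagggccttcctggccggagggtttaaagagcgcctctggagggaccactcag
Trib3 (chr2:152344011-152344310, minus strand): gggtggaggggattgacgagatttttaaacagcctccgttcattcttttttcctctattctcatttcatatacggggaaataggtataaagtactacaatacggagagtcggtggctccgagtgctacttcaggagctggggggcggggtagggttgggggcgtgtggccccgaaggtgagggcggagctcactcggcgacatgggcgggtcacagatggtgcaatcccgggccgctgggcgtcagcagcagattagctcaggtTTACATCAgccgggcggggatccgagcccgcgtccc
Asns (chr6:7693160-7693459, minus strand): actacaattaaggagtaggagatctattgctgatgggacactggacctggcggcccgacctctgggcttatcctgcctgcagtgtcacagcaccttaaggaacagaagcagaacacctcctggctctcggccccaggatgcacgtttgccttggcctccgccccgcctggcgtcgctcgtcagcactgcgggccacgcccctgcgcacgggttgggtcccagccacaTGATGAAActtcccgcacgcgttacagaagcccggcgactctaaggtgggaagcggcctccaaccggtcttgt
Slc7a11 (chr3:50443564-50443863, minus strand): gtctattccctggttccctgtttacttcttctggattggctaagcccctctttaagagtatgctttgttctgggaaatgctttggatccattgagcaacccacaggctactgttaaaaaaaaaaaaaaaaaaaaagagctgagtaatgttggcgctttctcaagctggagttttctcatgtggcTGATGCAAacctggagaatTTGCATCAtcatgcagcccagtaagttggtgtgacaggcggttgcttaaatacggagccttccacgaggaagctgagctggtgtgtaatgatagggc

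Chac1, which degrades glutathione, was near the detection floor in WT at 0.183, 0.142 and 0.207 CPM and reached 3.38, 2.97 and 4.05 CPM in WT + JSH23 (log2 fold change 4.27, SE 0.316, adjusted p = 3.61e-10). Trib3, a pseudokinase that dampens ATF4, went from 0.841 ± 0.234 to 8.03 ± 1.05 CPM (log2 fold change 3.27, SE 0.231, adjusted p = 1.81e-10). Both promoters printed above hold a single match, and the promoter of Slc7a11 holds 2. Asns, asparagine synthetase (ENSMUSG00000029752.12, chromosome 6, 7675169 to 7693254), was at 4.86, 4.84 and 5.28 CPM in the WT samples and 26.4, 28.2 and 33.4 CPM in the WT + JSH23 samples. It rose 5.88-fold (log2 fold change 2.56, SE 0.129, adjusted p = 1.01e-12). Slc6a9 was at 1.68, 1.96 and 1.76 CPM in the WT samples and 16.0, 15.8 and 16.2 CPM in the WT + JSH23 samples and rose 8.84-fold (log2 fold change 3.14, SE 0.118, adjusted p = 1.05e-14). Serine and proline enzymes rose in part, Phgdh by a log2 fold change of 1.25 and Aldh18a1 by 0.53, while Psat1 (0.16) and Psph (0.24) did not pass. Gpt2, an alanine aminotransferase, rose from 4.15 ± 0.433 to 10.5 ± 0.426 CPM (log2 fold change 1.34, SE 0.114, adjusted p = 3.66e-09), and the cationic amino acid transporter gene Slc7a1 by 1.22.

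Transcripts of the factors rose as well. Atf4 rose from 123 ± 0.994 to 228 ± 9.89 CPM (0.89 log2) and Ddit3, which encodes CHOP, by 0.48, and in all 7 of 8 factor genes rose. Sqstm1, an autophagy receptor and target of both ATF4 and Nrf2, was at 1305, 1295 and 1337 CPM in the WT samples and 2901, 2799 and 3161 CPM in the WT + JSH23 samples (log2 fold change 1.17, SE 0.0588, adjusted p = 9.66e-13), and Vegfa rose from 51.8 ± 4.81 to 115 ± 11.5 CPM (log2 fold change 1.15, SE 0.0902, adjusted p = 9.79e-10). Of the 4 sensor kinases Eif2ak2, which is interferon-induced, fell (-0.53) and the other 3 did not pass. Aminoacyl-tRNA synthetases had 11 of 20 higher and 4 lower (median 0.27), led by Cars (log2 fold change 0.95, SE 0.0852, adjusted p = 7.71e-09), Eprs (0.80) and Aars (0.74), and Vars fell (-0.38). The unfolded protein response of the endoplasmic reticulum differed from these, with 4 of 22 higher, 7 lower and a median of 0.001. Its leading chaperone gene Hspa5 fell by a log2 fold change of -0.16, Herpud1 fell from 91.7 ± 1.17 to 65.5 ± 1.49 CPM (log2 fold change -0.49, SE 0.0455, adjusted p = 1.5e-08), Sdf2l1 fell by -0.29, and Creld2 rose by 0.26.

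Heat shock genes rose in 20 of 23 cases and fell in none (median 0.39). Dnajb4, a cochaperone, was at 21.5, 22.3 and 20.2 CPM in the WT samples and 55.9, 51.8 and 59.4 CPM in the WT + JSH23 samples (log2 fold change 1.38, SE 0.0573, adjusted p = 4.57e-14). Hspa1a and Hspa1b, near-identical copies of the inducible HSP70 gene whose reads were divided between them, had log2 fold changes of 1.38 and 1.20. Hsph1 (0.88), Fkbp4 (0.68) and Hsp90aa1 (0.58) rose less. Of 13 genes of metallothioneins and zinc handling, 6 rose and 2 fell (median 0.26). All 3 metallothionein genes, whose proteins bind zinc and copper, rose, the abundant Mt1 (0.41) and Mt2 (0.42) slightly and Mt3, of low abundance, from 0.396 ± 0.126 to 2.00 ± 0.412 CPM (log2 fold change 2.31, SE 0.305, adjusted p = 2.29e-06). The zinc importer gene Slc39a6 rose from 19.2 ± 0.464 to 34.3 ± 1.92 CPM (log2 fold change 0.84, SE 0.0720, adjusted p = 4.06e-09). The zinc exporter gene Slc30a1 rose by 0.44 and Mtf1, the zinc-sensing factor, did not pass (-0.02).

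Protein degradation genes shifted upward by small amounts. The proteasome had 20 of 32 genes higher and 1 lower (median 0.12), none by 2-fold, with Psmb6 (log2 fold change 0.40, SE 0.0535, adjusted p = 2.45e-06), Psmd11 (0.36) and Psmc6 (0.34) leading. Lysosome and autophagy genes had 22 of 40 higher and 6 lower (median 0.19). Atp6v0d2, a subunit of the proton pump, was at 52.4, 53.4 and 53.4 CPM in the WT samples and 129, 128 and 148 CPM in the WT + JSH23 samples and rose (log2 fold change 1.35, SE 0.0586, adjusted p = 9.92e-14). Gabarapl1, an autophagosome protein, rose from 98.9 ± 2.83 to 183 ± 9.78 CPM (0.89 log2), and the folliculin partner gene Fnip2 by 0.82. Rragd, a GTPase of nutrient sensing at the lysosome, rose by 1.21, and Ctss (-0.031) and Lamp1 (0.02) did not pass.

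The aryl hydrocarbon receptor is a sensor of small aromatic ligands. Its gene Ahr was at 28.0, 25.1 and 27.1 CPM in the WT samples and 70.1, 71.3 and 71.1 CPM in the WT + JSH23 samples and rose (log2 fold change 1.41, SE 0.0557, adjusted p = 2.43e-14). Ahrr, its repressor and target, was at 167, 173 and 167 CPM in the WT samples and 59.9, 60.6 and 54.5 CPM in the WT + JSH23 samples and fell (log2 fold change -1.53, SE 0.0532, adjusted p = 2.64e-15), the target Cyp1b1 fell from 9.66 ± 0.747 to 1.14 ± 0.280 CPM (-3.07 log2), and Tiparp had a log2 fold change of -0.41 and fell. The other target tested, Aldh3a1, stood at 0.90 with at most 15 counts in a sample and did not pass. Of 7 genes tested, 1 rose and 3 fell. Cholesterol synthesis and uptake had 10 of 28 higher and 5 lower (median 0.069), beside 18.8% and 22.1% of all genes. The lysosomal cholesterol exporter gene Npc1 (0.73) and Insig2 (0.50) were among those that rose. Among 19 genes of LXR and fatty acid synthesis, 7 rose and 4 fell. Nr1h3, which encodes LXRα, fell (-0.78), Mylip, a ligase for the LDL receptor, rose (0.81) and so did Rxra (0.54). Glycolysis and hypoxia genes were mixed, 8 of 31 higher and 13 lower (median -0.17). Pdk1, which holds pyruvate back from mitochondria, fell from 13.1 ± 2.40 to 6.09 ± 0.441 CPM (log2 fold change -1.10, SE 0.130, adjusted p = 4.75e-07), Pfkl by -0.78 and Slc2a6 by -0.61.

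Immediate early genes respond within minutes to growth and stress signals. They were listed with AP-1 factor genes and feedback genes, and the list moved in both directions. Of 34 genes, 8 were higher and 14 lower, beside 18.8% and 22.1% of all genes. Of the 12 immediate early genes alone, 1 rose, 6 fell and 5 did not pass (median -0.31). Of 12 AP-1 genes 4 rose and 3 fell, and of 10 feedback genes tested 3 rose and 5 fell. Fos was at 8.47, 11.6 and 11.1 CPM in the WT samples and 4.49, 4.88 and 4.53 CPM in the WT + JSH23 samples and fell (log2 fold change -1.17, SE 0.116, adjusted p = 3.71e-08). Egr1 (-2.27), Egr3 (-3.83) and Klf2 (-1.78), all under 10 CPM, also fell. Mafg, a small Maf partner of Nrf2, rose (log2 fold change 0.84, SE 0.0458, adjusted p = 3.39e-12), as did Dusp1, a phosphatase of MAP kinases (0.78), and Jun (0.57). Of 19 p53 targets, 5 rose and 6 fell, beside 18.8% and 22.1% of all genes, and no shift of the list is read from this. Plk2 (log2 fold change 1.29, SE 0.0834, adjusted p = 4.76e-11) and Plk3 (1.05) were higher and Btg2 was lower (-0.52). Of the main targets, Mdm2 was higher (0.51) and Cdkn1a lower (-0.42).

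Cell cycle genes separated by phase. Of 16 DNA replication genes 4 rose, 2 fell and 10 did not pass (median 0.001), whereas all 12 mitosis genes fell (median -0.91) and 7 of 12 cyclin and related genes fell with none higher. Ccnd2, a cyclin that drives entry into the cycle, was at 394, 381 and 375 CPM in the WT samples and 177, 196 and 181 CPM in the WT + JSH23 samples (log2 fold change -1.05, SE 0.0456, adjusted p = 8.99e-14). Ccnd1 was at 30.8, 34.0 and 29.8 CPM in the WT samples and 11.6, 11.8 and 9.39 CPM in the WT + JSH23 samples (log2 fold change -1.53, SE 0.0735, adjusted p = 5.05e-13), and both had fractional counts in every sample. Among mitosis genes Top2a fell from 37.0 ± 2.05 to 19.5 ± 1.38 CPM (log2 fold change -0.93, SE 0.0743, adjusted p = 1.31e-09), the proliferation marker Mki67 by a log2 fold change of -0.83, Plk1 of -1.65 and the kinetochore gene Cenpf of -2.09. Replication genes such as Pcna (0.16) and Mcm2 (0.29) rose, and Mcm6 (0.094) did not pass.

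Cell type markers were examined with the same counts. Of 24 dendritic cell markers tested, 7 rose and 10 fell (median -0.079), beside 18.8% and 22.1% of all genes. The 11 lineage markers among them spread most, with log2 fold changes from -1.09 to 0.96. Of these 3 rose and 5 fell, 1 by more than 2-fold. Class II genes changed little, with H2-Ab1 lower (log2 fold change -0.12, SE 0.0382, adjusted p = 0.0181, but 0.0705 without WT + JSH23 replicate 2 and 0.0669 without WT replicate 6) and H2-Aa (-0.077) and Cd74 (-0.081) not past the test, and Itgax fell slightly (log2 fold change -0.12, SE 0.0356, adjusted p = 0.0119, but 0.0832 without WT + JSH23 replicate 3, 0.0741 without WT replicate 5 and 0.0569 with limma). Ciita, the master activator of class II genes, was at 462, 459.7 and 465 CPM in the WT samples and 244, 273 and 249 CPM in the WT + JSH23 samples and fell (log2 fold change -0.86, SE 0.0389, adjusted p = 2.01e-13), and H2-DMb1, which loads peptide on class II, fell by -0.60. Of 6 costimulation genes 4 rose, namely Tnfsf4 (log2 fold change 0.62, SE 0.0525, adjusted p = 3.44e-09), Cd80 (0.36), Cd86 (0.20) and Cd83 (0.20). Ctcf fell slightly, from 63.1 ± 1.74 to 57.7 ± 2.15 CPM (log2 fold change -0.13, SE 0.0435, adjusted p = 0.0224), a call lost in 6 of the alternatives, with adjusted p = 0.131 without WT + JSH23 replicate 1 and 0.269 with limma.

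Of 18 monocyte and macrophage markers, 13 fell and 2 rose (median -0.47). Ly6c2, which marks inflammatory monocytes, was at 144, 147 and 148 CPM in the WT samples and 55.9, 51.1 and 55.6 CPM in the WT + JSH23 samples (log2 fold change -1.43, SE 0.0691, adjusted p = 5.24e-13). Fcgr1, the high-affinity IgG receptor, was at 195, 212 and 201 CPM in the WT samples and 77.7, 87.0 and 80.5 CPM in the WT + JSH23 samples (log2 fold change -1.31, SE 0.0619, adjusted p = 3.69e-13), and Siglec1 fell from 26.8 ± 0.831 to 11.7 ± 0.0718 CPM (-1.19 log2). The CSF1 receptor gene Csf1r fell (-0.43), as did Lyz2 (-0.31) and the complement genes C1qa (-0.79), C1qb (-0.66) and C1qc (-0.69). Mrc1 (0.02) did not pass, and Cd68 rose (0.35). Among neutrophil markers 4 of 10 tested fell, including Csf3r (-0.44) and Mmp8 (-0.32), while the granule genes S100a8 (0.063) and Ngp (-0.086) did not pass. Of 30 markers of other cells only 6 were tested, and 5 fell. The sixth, the stromal marker Pdgfra, had at most 25 counts in a sample and rose (1.09), with overlapping groups. The most abundant of these was Tcf4, known from plasmacytoid cells (-0.41). Of 13 mitochondrially encoded genes 7 fell and 1 rose, by small amounts such as -0.60 for mt-Nd3, -0.21 for mt-Nd1 and 0.19 for mt-Co2, whose call was lost in 5 alternatives with adjusted p up to 0.113.

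**Figure D4:**
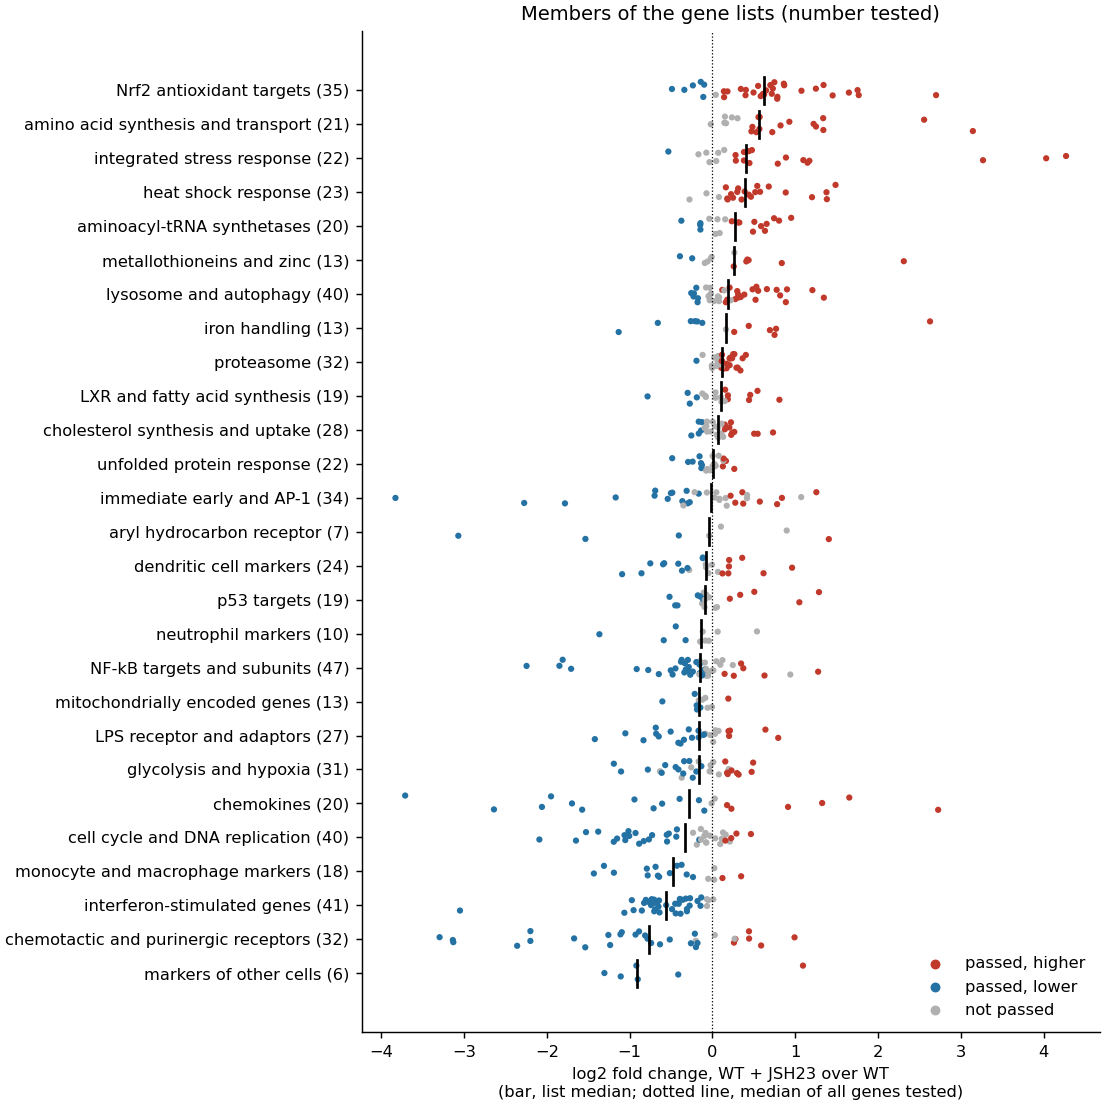
Log2 fold change of WT + JSH23 over WT (x axis) for each tested member of the 27 gene lists (y axis, ordered by median, number tested in brackets). Red and blue points passed an adjusted p of 0.05, grey points did not, bars are list medians and the dotted line the median of all genes tested, with Nrf2 targets at the top (0.62) and, among lists of over 10 tested genes, chemotactic and purinergic receptors at the bottom (-0.76).

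The change without LPS was then set beside the change with JSH-23 under LPS, which shares no sample with it. Per the paper JSH-23 was given before LPS, and the collection time without LPS is not stated. The time of exposure to JSH-23 may therefore differ along with LPS, and these cannot be told apart. Over all genes the difference between these changes passed for 2582 (18%), and of the 101 named genes tested, most of which were named for a large or passing change without LPS, it passed for 51. The 3 Nrf2 targets with the largest changes among those at 10 CPM or more gave no passing difference. The log2 fold change without and with LPS was 1.75 and 1.84 for Hmox1 (adjusted p of the difference = 0.595), 1.65 and 1.62 for Srxn1 (adjusted p = 0.865), and 1.77 and 1.96 for Gclc (adjusted p = 0.324). Cx3cr1 (-3.14 and -3.18, adjusted p = 0.92) and P2ry13 (-3.29 and -3.20, adjusted p = 0.765) gave none either. Cytokine genes did differ. Il12b and Il6 rose without LPS (1.28 and 0.63) and fell with JSH-23 under LPS (-0.64 and -0.59), and the differences passed (adjusted p = 1.49e-10 and 1.63e-07). Tnf fell in both, more without LPS (-1.81 against -0.73, adjusted p = 8.09e-09). Inhba rose by 2.55 without LPS and by 0.47 under LPS (adjusted p = 5.9e-08). Genes of the interferon response did not differ in one direction. Ifit3 (-1.24, adjusted p = 0.00198) and Ch25h (-1.84, adjusted p = 8.6e-05) fell more under LPS, and Oas2 (-1.13) gave no passing difference (adjusted p = 0.0771). The interferon-induced genes Cxcl10 and Gbp2b fell less under LPS. Their log2 fold change under LPS minus that without LPS was 0.36 (adjusted p = 0.0077) and 0.33 (adjusted p = 0.029). The interferon-stimulated list as a whole was not tested for this difference. The amino acid genes Slc6a9 (3.97 under LPS, adjusted p = 0.0118) and Asns (3.23, adjusted p = 0.0196) rose more under LPS.

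**Figure D5:**
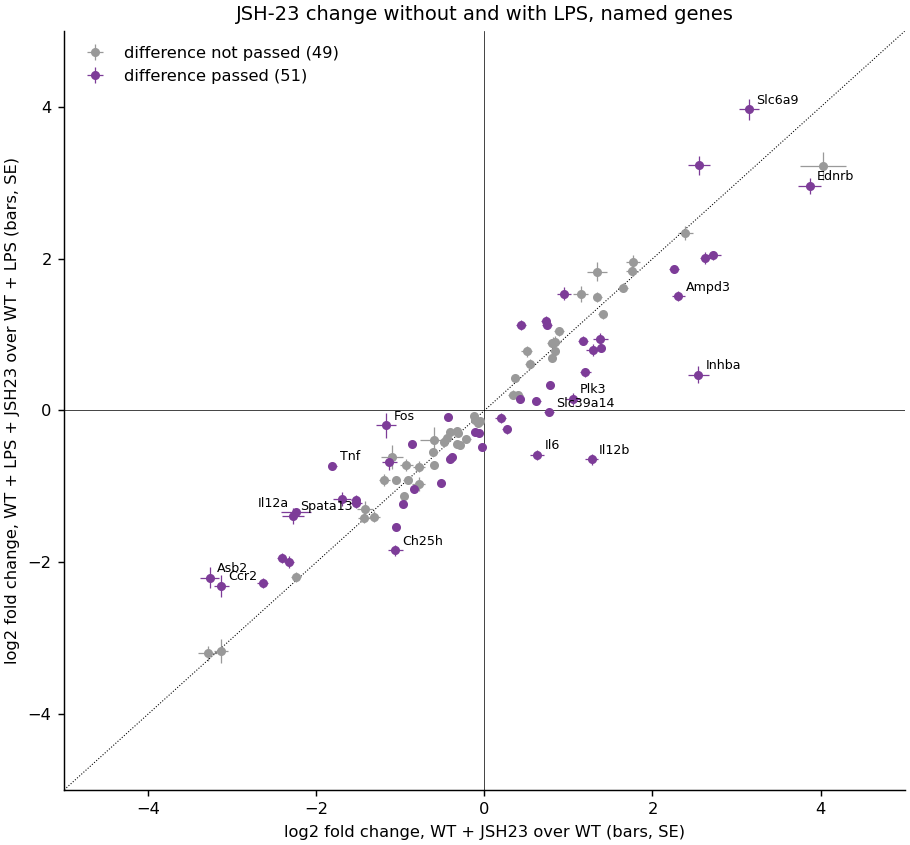
Log2 fold change with JSH-23 without LPS (x axis) and under LPS (y axis) for 100 named genes, leaving out Ifnb1 for its low counts. Bars are standard errors, the dotted line marks equal changes, and purple points are the 51 genes whose difference passed an adjusted p of 0.05, among which Il12b and Il6 lie right of and below 0.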

How the data were processed

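RNA-seq libraries of BMDCs were analysed from the processed files. The authors trimmed reads with Trim Galore, aligned them to mm10 with STAR (version 2.6.0c per the labels' processing notes) and quantified genes with RSEM. Expected counts, as deposited, are RSEM's estimates of read pairs from each gene, in which a pair matching several genes is split among them, and had no normalization. The deposited TPM values were scaled by the authors for transcript length and library total. The labels and the methods name different kits for RNA selection, and whether counting used strand is not given in the sources used here. Symbols and positions came from GENCODE M21 (55154 of 55335 identifiers matched without version suffix).

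Expected counts were rounded, filtered with filterByExpr of edgeR 4.0.16 in R 4.3.3 (14357 genes left), scaled by TMM, and fitted over 12 samples with 1 mean per group (8 residual degrees of freedom). The contrast of WT + JSH23 minus WT and its difference from the contrast under LPS were tested with the quasi-likelihood F-test, with Benjamini-Hochberg adjustment over all genes tested. Genes were called if their adjusted p was below 0.05 and they changed over 2-fold. SE is the absolute log2 fold change divided by the square root of F, and CPM uses TMM-scaled library sizes, given as mean ± SD. The procedure was run before use on simulated counts, as a check of the code only. These had a fixed spread and equal gene means in all groups but WT + JSH23, unlike the data. Depth was at least 24664724 counts per sample, and genes with few counts are imprecise at it.

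Gene lists (27 lists, 704 symbols) are described by counts and medians without a list test. Members and lists were chosen with earlier results of these data known. Genes were named as the 10 largest rises and 10 largest falls of called, officially named protein-coding genes whose groups did not overlap, with over 3 counts in every sample and 10 CPM or more as the larger group mean, as the up to 3 largest passing changes per list at that mean level, and as 18 genes fixed by name. A few genes, 1 of these falls among them, are not reported here. Other list members are quoted as examples chosen after their values were seen. Alternatives were DESeq2 1.42.0, other scalings and filters, only 6 samples, limma 3.58.1 on log2(TPM + 1) and leaving out each of the 6 samples in turn. RefSeq promoters (GRCm38.p6) were searched on both strands for TGATGNAA and 4 further motifs.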

Additional observations from a re-analysis of the deposited data

Results flagged for a closer look

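Groups of 3 samples were too small for a search for single outlying samples. The results set out here are the named genes whose change with JSH-23 differed with and without LPS, tested as an interaction with edgeR's quasi-likelihood test over all 12 samples and adjusted over all genes tested. The value given for each gene is the log2 fold change with JSH-23 under LPS minus the log2 fold change without LPS. Most of these genes were named for a large or passing change without LPS.

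Among genes that rose without LPS, the rise was smaller under LPS for Inhba (-2.07), Ednrb (-0.91), Plk3 (-0.89), Ampd3 (-0.80), Hspa1b (-0.70), Cxcl5 (-0.68), Slc40a1 (-0.61), Dnajb4 (-0.55), Tnfsf4 (-0.50), Plk2 (-0.49), Dusp1 (-0.45), Hspa1a (-0.44), Il1f9 (-0.39), Mt2 (-0.27) and Sqstm1 (-0.25). It was larger under LPS for Aars (0.39), Npc1 (0.45), Cars (0.59), Asns (0.68), Slc30a1 (0.69) and Slc6a9 (0.83). Among genes that fell without LPS, the fall was smaller under LPS for Ccnd1 (0.31), Gbp2b (0.33), Csf1r (0.34), Ahrr (0.36), Cxcl10 (0.36), Ciita (0.41), Tfrc (0.45), Jaml (0.47), Ccl2 (0.53), Ccr2 (0.82), Spata13 (0.89), Il12a (0.90), Fos (0.97), Asb2 (1.06) and Tnf (1.08). It was larger under LPS for Ch25h (-0.78), Ccnd2 (-0.48), Btg2 (-0.43), Ifit3 (-0.26), Irak2 (-0.23), Tcf4 (-0.22), Myd88 (-0.20) and H2-Ab1 (-0.17).

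Opposite signs were found for Il12b (-1.92), Il6 (-1.21), Slc39a14 (-0.79), Creld2 (-0.51) and mt-Co2 (-0.29). Il12b, Il6 and Creld2 rose without LPS and fell under LPS, each past the test, while the change under LPS of Slc39a14 (-0.026, adjusted p = 0.678) and of mt-Co2 (-0.095, adjusted p = 0.237) did not pass. The difference also passed for Trim25 (-0.45) and Acod1 (-0.23), which did not pass without LPS. The cause of these differences was not tested, and the time of exposure to JSH-23 may differ along with LPS.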

How the results depend on the processing

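The count of 771 called genes (349 higher, 422 lower) stayed within 1.5 times under DESeq2 (706, of which 702 were shared), DESeq2 size factors in edgeR (770), upper quartile scaling (756), no filter on low counts (878) and a fit to only the 6 samples of both groups (722). A minimum mean of 1 CPM gave 511 genes (223 higher, 288 lower), with fewer genes tested, and limma on log2(TPM + 1) gave 318 (139 higher, 179 lower), of which 313 were shared, and the cause was not tested. Without a fold threshold 5881 genes passed (2701 higher, 3180 lower). Leaving out each of the 6 samples in turn gave 703 to 784 genes, 315 to 345 higher and 388 to 439 lower. The higher share ran from 43.6% to 47.0% over these settings. The count of genes whose change differed under LPS, 2582, was recomputed with alternatives chosen after seeing the data and ran from 1762 with limma to 2721 with the 1 CPM minimum.

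Of 1312 recomputed changes of the 101 named genes, 1295 kept direction and side of the threshold. Trim25, which did not pass, turned to a log2 fold change of 0.011 without WT + JSH23 replicate 1, in a range of -0.059 to 0.011 over the samples left out. Lost calls concerned mt-Co2 in 5 settings, Ctcf in 6, Itgax in 3 and H2-Ab1 in 2. The adjusted p of Ctcf reached 0.131 without WT + JSH23 replicate 1 and 0.269 with limma. That of Itgax reached 0.0832 without WT + JSH23 replicate 3, and that of H2-Ab1 0.0705 without WT + JSH23 replicate 2. The median of the interferon-stimulated list stayed between -0.57 and -0.53 and that of the Nrf2 list between 0.60 and 0.66. The median of the aryl hydrocarbon receptor list ran from -0.23 to 0.001. That of the list of immediate early, AP-1 and feedback genes ran from -0.12 to 0.022, so neither list has a stable sign. No paired analysis was possible because WT samples carry the numbers 4 to 6 and WT + JSH23 samples 1 to 3, which share none.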

Other observations

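Outside the lists and the genes named above, 52 protein-coding genes were called whose larger group mean was 100 CPM or more, 18 higher and 34 lower, and the following examples were chosen after their values were seen. Secreted and surface proteins were among the rises. Thbs1, which encodes the matrix protein thrombospondin, rose from 464 ± 12.9 to 1451 ± 143 CPM (log2 fold change 1.64, adjusted p = 1.63e-15), the elastase gene Mmp12 from 1602 ± 93.7 to 3667 ± 154 CPM (log2 fold change 1.20, adjusted p = 1.79e-14) and the endothelial protein C receptor gene Procr from 130.5 ± 3.76 to 403 ± 42.9 CPM (log2 fold change 1.63, adjusted p = 2.19e-13). The hepatocyte growth factor receptor gene Met rose from 173 ± 7.75 to 445 ± 14.9 CPM (log2 fold change 1.36, adjusted p = 1.01e-14). Ppbp, a platelet-type CXC chemokine gene that was not on the chemokine list, rose from 30.3 ± 2.30 to 113 ± 3.52 CPM (log2 fold change 1.90, adjusted p = 1.47e-16). Gss, the last enzyme of glutathione synthesis, rose from 63.0 ± 2.07 to 155 ± 10.2 CPM (log2 fold change 1.30, adjusted p = 9.73e-13), and the prostaglandin reductase gene Ptgr1 from 55.5 ± 0.524 to 197 ± 15.4 CPM (log2 fold change 1.83, adjusted p = 1.82e-15).

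Among the falls, Gbp5, an interferon-induced GTPase gene, went from 642 ± 16.4 to 279 ± 2.23 CPM (log2 fold change -1.20, adjusted p = 1.83e-15), Gbp7 from 265 ± 10.5 to 98.7 ± 0.148 CPM (log2 fold change -1.43, adjusted p = 2.67e-16) and Ifit1bl1 from 274 ± 17.9 to 59.4 ± 6.06 CPM (log2 fold change -2.21, adjusted p = 8.85e-14). Apol7c, of a family of apolipoprotein L genes whose reads were partly divided between copies, fell from 1687 ± 13.2 to 514 ± 20.4 CPM (log2 fold change -1.71, adjusted p = 1.8e-17). Lpl, lipoprotein lipase, fell from 2261 ± 166 to 1085 ± 80.6 CPM (log2 fold change -1.06, adjusted p = 1.19e-11). Pik3cd, the leukocyte catalytic subunit of a lipid kinase, fell from 207 ± 1.21 to 79.8 ± 7.18 CPM (log2 fold change -1.38, adjusted p = 2.64e-15), and Notch1 from 103 ± 0.520 to 46.0 ± 5.78 CPM (log2 fold change -1.17, adjusted p = 1.73e-12). Icosl, a costimulatory ligand of T cells, fell from 141 ± 6.61 to 69.8 ± 2.99 CPM (log2 fold change -1.01, adjusted p = 2.52e-11).

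Further short motifs were searched in the same promoters on both strands, each given as the share in the promoters of genes called higher, of genes called lower and of all genes tested. The antioxidant response element core TGACNNNGC was in 15.3%, 10.3% and 14.2%, and the aryl hydrocarbon receptor element core GCGTG in 43.2%, 30.3% and 49.3%. The metal response element core TGCNCNC was in 61.4%, 51.8% and 59.1%, and the heat shock element in 0.649%, 0 of 340 promoters and 0.47%. With promoters for fewer than 80% of the called genes and of all genes tested, these shares are void as a check of the sets.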
